A study of Mus musculus with 8 samples.

Results

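Cyclin-dependent kinase (CDK) inhibitors and the retinoblastoma (Rb) pocket proteins were read from a table of 13558 transcripts of mouse embryonic stem (mES) cells with and without functional Trim71. The genes were chosen by symbol: Cdkn1a, Cdkn1b, Cdkn2c and Cdkn2d for the inhibitors, and Rb1, Rbl1 and Rbl2 for the pocket proteins. Of these 7 genes, 6 were found; Cdkn2c was not found under its symbol or an older name and was not analysed here. The question was whether loss of Trim71, an RNA-binding protein and ubiquitin ligase, goes along with a change in the mRNA of these brakes on the cell cycle.

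The libraries were made from total RNA of male mES cells of the C57BL/6 strain, grown in serum with LIF and enriched for the stem cell antigen SSEA-1 by magnetic sorting before lysis. In the 4 WT libraries both Trim71 alleles were conditional (Trimfl/fl), with loxP sites around the last exon. In the 4 KO libraries (Trim-/-) this exon had been deleted. Per the study's methods, the lines carried Rosa26-CreERT2, a Cre recombinase that 4-hydroxytamoxifen (4-OHT) switches on, and control cells received the solvent. Per the labels, 4-OHT was given at 500 nM over 2 days to induce the deletion and cells were then grown on for at least 7 days; the dose in the study's methods differs. Both genotypes came from a pair of cell clones. Clone E3 gave 3 KO and 2 WT libraries, and clone 1 gave 1 KO and 2 WT libraries, so every comparison within clone 1 rests on 1 KO library. KO replicates 1 to 4 carry the day labels 2, 3, 4 and 5, and WT replicates 1 to 4 the day labels 1, 3, 4 and 5. What the day counts is not given in the sources used here, nor whether libraries came from separate cultures, so p-values measure the spread between these libraries, which may be technical.

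CDK inhibitors hold back the kinases that drive a cell from G1 into S phase. The CIP/KIP proteins p21 (Cdkn1a) and p27 (Cdkn1b) bind cyclin-CDK complexes, mainly those of CDK2, whereas the INK4 proteins, including p18 (Cdkn2c) and p19 (Cdkn2d), bind CDK4 and CDK6. Unphosphorylated pocket proteins (Rb1, and its relatives p107 from Rbl1 and p130 from Rbl2) bind E2F factors and silence the genes of DNA replication. In mES cells G1 is short, the kinases are highly active and the pocket proteins are largely kept phosphorylated, and microRNAs (miRNAs) of the miR-290 and miR-302 families are known to hold down Cdkn1a and Rbl2.

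The sequences of such miRNAs, and letters in the 3′UTRs that could pair with them, are given here as background. Whether these letters are used as sites was not tested, and miRNAs were not measured in these libraries. The mature sequences, from RefSeq on GRCm38.p6, are shown with the seed (bases 2 to 8) in capitals. miR-294-3p lies at chr7:3220691-3220712 and miR-302b-3p at chr3:127545275-127545297, both on the plus strand. They share their seed with miR-291a-3p, miR-295-3p and miR-302d-3p. miR-17-5p (chr14:115043684-115043706, plus strand) and miR-20a-5p (chr14:115044183-115044205, plus strand) carry the same letters moved along by 1 base.
mmu-miR-294-3p: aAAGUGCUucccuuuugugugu
mmu-miR-302b-3p: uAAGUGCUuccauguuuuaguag
mmu-miR-17-5p: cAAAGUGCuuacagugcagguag
mmu-miR-20a-5p: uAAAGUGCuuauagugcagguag

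The letters that pair with these seeds are AGCACTT for the miR-294 group and GCACTTT for the miR-17 group; they overlap in 6 bases and were searched on the transcript strand of the 3′UTR of each gene's longest coding GENCODE transcript (release M21, mm10). In the windows below, each of at most 28 bases, capitals mark the first of these words. Cdkn1a held AGCACTT at 2 places, at bases 435 and 1107 of a 3′UTR of 1334 bases, where 15.6% of the 1649 3′UTRs of like length (within 1.2-fold) held at least 1. Rbl1 held it at base 22 of 1613, where 17.8% of 1709 did so, and Rbl2 at base 1384 of 1398, where 16.5% of 1649 did so.
Cdkn1a, chr17:29099816-29099843, plus strand: tcagacctgaatAGCACTTtggaaaaat
Cdkn1a, chr17:29100488-29100515, plus strand: cgtgggtgtcaaAGCACTTagtgggtct
Rbl1, chr2:157147469-157147496, minus strand: ttgcctgatcaaAGCACTTttggattgt
Rbl2, chr8:91123818-91123844, plus strand: atttttcaataaAGCACTTataaatta

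The shifted word GCACTTT was found at 1 place in Cdkn1a, 1 in Rb1, 1 in Rbl1 and 2 in Rbl2, where between 14.2% and 16.4% of 3′UTRs of like length held it. In Cdkn1a and Rbl1 it shares its place with an AGCACTT shown above. Cdkn1b and Cdkn2d held neither word in 3′UTRs of 3439 and 563 bases, which says only that these letters are not in that window. A match of letters is a description and not a measured site.

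Trim71 checked the labels. Its normalized read count was 500.3, 793, 733 and 247 in the KO libraries (replicates 1 to 4) and 2782, 2736, 1988 and 2584 in the WT libraries. All 4 KO libraries were below all WT libraries, with a fitted difference of -2.39 on the log2 scale (SE 0.35, limma unadjusted p = 0.000201, adjusted p = 0.294). Transcripts of the remaining exons were still counted, because only the last exon was removed. In clone E3 the difference was -1.81 and in clone 1 it was -3.44, but with the authors' clone correction undone both clones were near each other, at -2.45 and -2.50.

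The values are normalized read counts after an additive correction for clone, worked back to whole reads as a check; a library held 6853191 to 25511476 recovered reads, and a member between 57 and 2476 reads in a library. Markers of mES cells summed to between 64000 and 85510 in KO and between 59460 and 76910 in WT libraries (8 of 8 markers in the table, Pou5f1 highest), and fibroblast markers to no more than 218 in any library (5 of 9 in the table; Col3a1, Postn, Lum and Dcn were not). Primitive endoderm markers (8 of 8, mostly Lama1) ranged from 3353 to 5420 in KO and from 1868 to 3948 in WT, and trophoblast markers (5 of 6, mostly Krt18) from 1532 to 2508 and from 627 to 2208. Mesoderm markers (4 of 6) ranged from 137 to 168 and from 103 to 173, and neural markers (6 of 7) from 808 to 1059 and from 968 to 1629. The part of these other cell types in the differences below was not tested. In bulk RNA, fewer cells of a type cannot be told apart from less RNA per cell.

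Cdkn2d was the only member that differed between genotypes at an unadjusted p under 0.05, being higher in KO; Cdkn1a had the largest fitted difference but scattered widely, and the pocket proteins showed no shift common to the 3 genes. Over the 6 members, 1 had an unadjusted p under 0.05 where 9.09% of all transcripts did (4.62% higher and 4.46% lower in KO). After adjustment over all transcripts no member, and 0% of all transcripts, stayed under 0.05. None passed a criterion of a 1.5-fold change with a limma unadjusted p under 0.05, which 4.25% of transcripts passed. The study applied the same cut-offs to an analysis of variance, so this share is not the study's own. With a linear model on untransformed values, 2.82% of all transcripts and no member passed the criterion. The groups did not overlap for 1 member, against 10.1% of transcripts. The median difference of the members was 0.10 on the log2 scale, and that of all transcripts was -0.00036. A share of 1 in 6 at these background rates is no result about the group of genes.

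**Figure D1:**
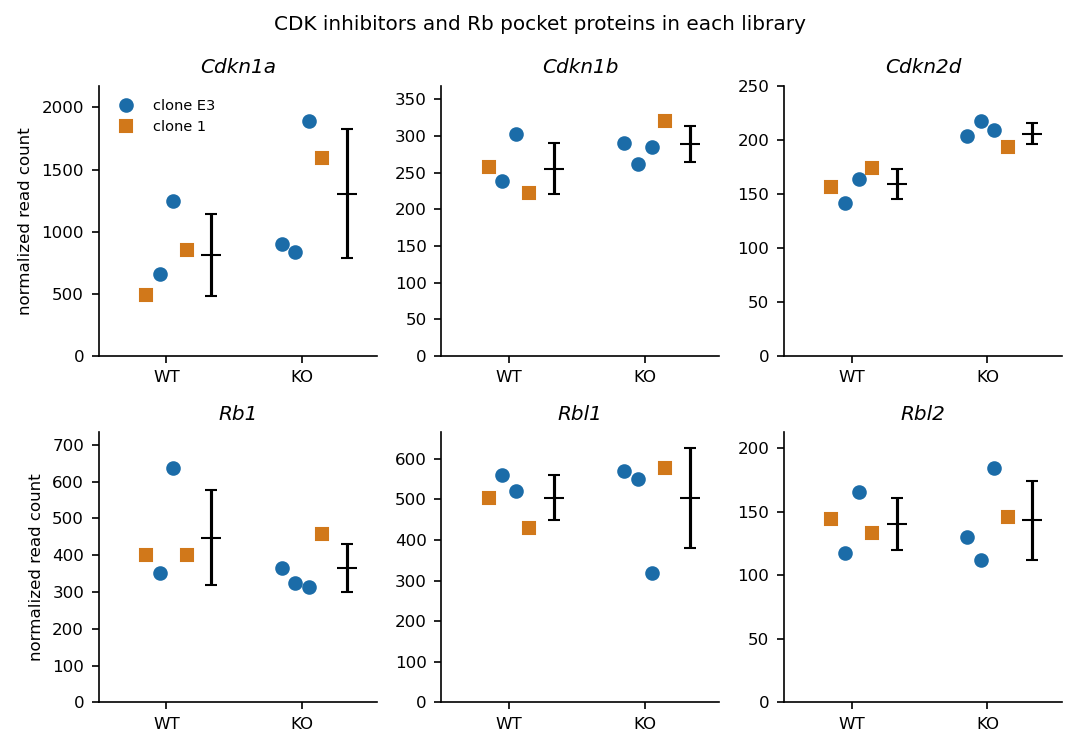
Normalized read count (linear axis from 0) of the 6 members in each library, WT left and KO right, with circles for clone E3 and squares for clone 1; the black bar beside each group is its mean with SD (n = 4). For Cdkn2d the 4 KO points, from 193 to 217, lie above the 4 WT points, from 142 to 174, while the groups of the other 5 members overlap.

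Cdkn2d (chr9:21288410-21291407, minus strand) encodes p19INK4d, an inhibitor of CDK4 and CDK6. It stood at 204, 217, 209 and 193 normalized reads in KO replicates 1 to 4 and at 156, 142, 164 and 174 in WT replicates 1 to 4. All KO libraries lay above all WT libraries. The means were 206 ± 10.1 in KO and 159 ± 13.7 in WT (SD, n = 4 each), and the spread within each group was small, with coefficients of variation of 4.88% and 8.64%. The fitted log2 difference was 0.38 (SE 0.12, 95% confidence interval 0.10 to 0.65), a fold change of 1.30, with a limma unadjusted p of 0.0134 and an adjusted p of 0.457. An exact two-sided permutation test over the 70 assignments of the libraries gave p = 0.0286, the smallest it can give. This test takes no account of clone, which is not balanced between the genotypes.

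The difference in Cdkn2d was positive in both clones, at 0.46 in clone E3 and 0.23 in clone 1, and on each day with both genotypes, at 0.61 on day 3, 0.35 on day 4 and 0.15 on day 5. Transcripts with a length and GC content like those of Cdkn2d differed in the same direction: the median log2 difference of the 347 transcripts within 1.2-fold of its 1423 bases and within 2 percentage points of its 55.8% GC was 0.14. When a trend on GC and length was removed from each library, the difference was 0.24 with limma unadjusted p = 0.0588, and no member was left under 0.05, where 9.81% of 12565 transcripts with a known length were. The part of length and GC in the difference was not tested otherwise. Without WT replicate 2, its lowest library, the difference was 0.30 with limma unadjusted p = 0.0544.

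Cdkn1a (chr17:29090976-29100727, plus strand) encodes p21, the inhibitor best known as a target of p53. It stood at 904, 836, 1889 and 1593 normalized reads in KO replicates 1 to 4 and at 487, 663, 1249 and 850.2 in WT replicates 1 to 4. The groups overlapped, as KO replicates 1 and 2 lay below WT replicate 3. Within both genotypes the library of day 4 was the highest in the deposited values. With the clone correction undone, KO replicate 4 (1747) lay just above KO replicate 3 (1735.5). The means were 1306 ± 518 in KO and 812 ± 327 in WT (SD, n = 4 each), the widest scatter of the 6 members, and 88.4% of all transcripts had a smaller SE. The fitted log2 difference was 0.66 (SE 0.40, 95% confidence interval -0.27 to 1.60, limma unadjusted p = 0.138, adjusted p = 0.645), and the exact two-sided permutation test gave p = 0.171.

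Comparing libraries of the same day changed the call on Cdkn1a. The KO library was the higher of the pair on each of the 3 days with both genotypes, by 0.33 on day 3, 0.60 on day 4 and 0.91 on day 5 on the log2 scale. With day as a block over these 6 libraries the difference was 0.61 (SE 0.15) with a limma unadjusted p of 0.0127 and an adjusted p of 0.218, so that 2 members, Cdkn1a and Cdkn2d, had an unadjusted p under 0.05 and 1, Cdkn1a, passed the 1.5-fold criterion. Among all transcripts the same fit gave 19.2% and 7.49%. Cdkn2d had a blocked difference of 0.37 (limma unadjusted p = 0.0443).

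The size of the Cdkn1a difference changed when single libraries were left out, and its value was not the same in the 2 clones. It was 0.31 within clone E3 and 1.31 within clone 1, where 1 KO library was compared with 2 WT libraries, and 0.36 and 1.12 with the clone correction undone. The test of the difference between the clones did not pass (interaction -1.0, SE 0.80, limma unadjusted p = 0.257), and with 1 library left out at a time its value ran from -1.46 to -0.54. Without KO replicate 4, the KO library of clone 1, the difference was 0.31, and without WT replicate 3 it was 1.02 with limma unadjusted p = 0.0426. Transcripts like Cdkn1a in length and GC (528) had a median difference of 0.09.

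**Figure D2:**
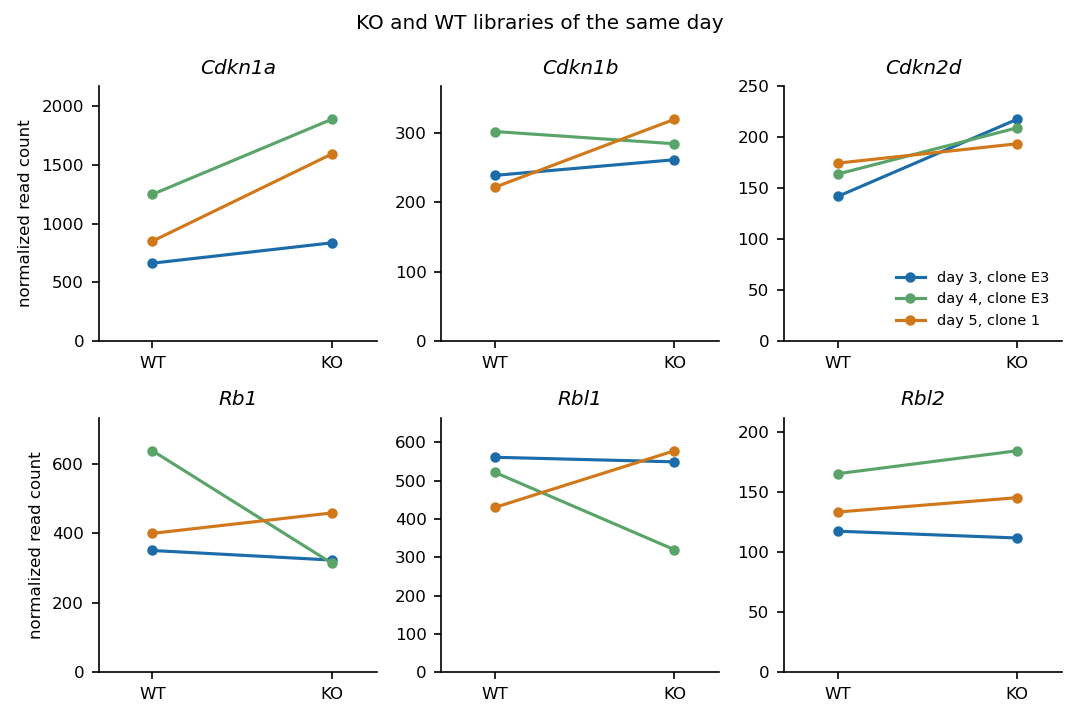
Normalized read count (linear axis from 0) in the WT and KO libraries of days 3, 4 and 5, joined by day; each line is 1 pair. For Cdkn1a and Cdkn2d all 3 lines rise from WT to KO, whereas for the other 4 members the lines run in both directions.

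Cdkn1b (chr6:134920401-134925513, plus strand) encodes p27, the CIP/KIP inhibitor linked to exit from the cell cycle. It stood at 289.8, 262, 285 and 320.2 normalized reads in KO replicates 1 to 4 and at 257, 239, 302 and 222 in WT replicates 1 to 4. Only KO replicate 4 lay above all WT libraries. The fitted log2 difference was 0.18 (SE 0.14, 95% confidence interval -0.15 to 0.52, limma unadjusted p = 0.238), equal to a fold between 0.90 and 1.43. It was 0.05 in clone E3, which is also its value without KO replicate 4, and 0.42 in clone 1. Without WT replicate 3 it was 0.31 (limma unadjusted p = 0.0578). Transcripts like it in length and GC (448) had a median of -0.13. With the GC and length trend removed the difference was 0.34 (limma unadjusted p = 0.113), and with day as a block in the same fit it was 0.43 (limma unadjusted p = 0.0173).

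Among the pocket proteins, Rb1 (chr14:73183673-73325822, minus strand), the retinoblastoma gene itself, stood at 365, 323, 314 and 459 normalized reads in KO replicates 1 to 4 and at 402, 351, 638 and 399.9 in WT replicates 1 to 4. WT replicate 3 was the highest library, and the other WT libraries lay within the KO range. The fitted log2 difference was -0.25 (SE 0.23, 95% confidence interval -0.80 to 0.29, limma unadjusted p = 0.310). Without WT replicate 3 it was 0.05, so the sign rested on that library, the most deeply read of the 8, and with the GC and length trend removed it was -0.047. By voom on recovered reads it was -0.43 (limma unadjusted p = 0.132). The difference was -0.50 in clone E3 and 0.19 in clone 1, and the test of the difference between the clones did not pass (limma unadjusted p = 0.167). Without WT replicate 2 the interaction of genotype and clone was -1.13, and without WT replicate 3 it was -0.27, each with 1 WT library left in clone E3.

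Rbl1 (chr2:157145893-157204534, minus strand) encodes p107, the pocket protein made mainly in cycling cells and itself a known E2F target. It stood at 569, 549, 319.8 and 578 normalized reads in KO replicates 1 to 4 and at 504, 561, 521 and 430.4 in WT replicates 1 to 4. KO replicate 3 alone was far below the others. The fitted log2 difference was -0.03 (SE 0.23, 95% confidence interval -0.57 to 0.51, limma unadjusted p = 0.897), and without KO replicate 3 it was 0.15. The promoter of Rbl1 was the only one of the 5 members with a RefSeq promoter, from 250 bases before to 50 bases after each start, that held TTTCGCGC or TTTGGCGC on either strand, words that E2F factors are known to bind. Of 32851 promoters, 0.813% held one of these words. The match starts 18 bases before the start site and is shown in capitals. It is a match of letters and not a measured site, and binding of E2F factors there was not tested.
Rbl1 promoter, chr2:157204535-157204562, minus strand (GRCm38.p6): agaaggcgatTTTCGCGCgctttgtcgc

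Rbl2 (chr8:91070057-91123844, plus strand) encodes p130, the pocket protein that prevails in resting cells. It stood at 130.2, 112, 185 and 145 normalized reads in KO replicates 1 to 4 and at 145, 118, 165 and 134 in WT replicates 1 to 4. The WT range lay inside the KO range, with the day 4 library highest in each group. With the clone correction undone, WT replicate 1 (162) was the highest WT library, above WT replicate 3 of day 4 (148). The fitted log2 difference was 0.02 (SE 0.20, 95% confidence interval -0.44 to 0.48, limma unadjusted p = 0.918), so a fold between 0.74 and 1.40 was within the interval. In clone E3 it was -0.0042 and in clone 1 it was 0.066. The 3 pocket protein genes are long and of low GC, and transcripts like Rb1, Rbl1 and Rbl2 had median differences of -0.16, -0.16 and -0.10.

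**Figure D3:**
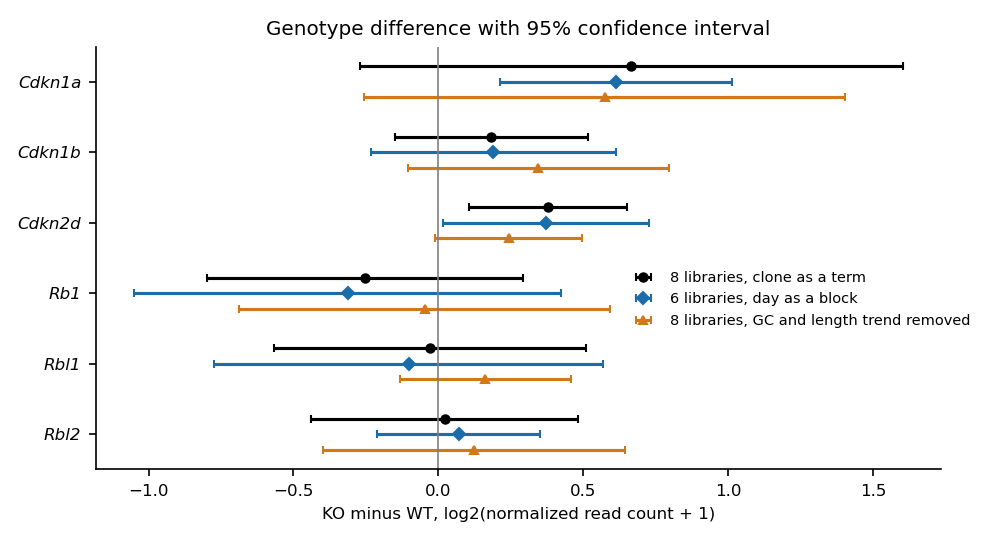
Fitted KO minus WT difference on the log2(normalized read count + 1) scale (horizontal axis) for each member, with 95% confidence intervals, for 8 libraries with clone as a term (black), 6 libraries with day as a block (blue) and 8 libraries after removal of the GC and length trend (orange). The interval of Cdkn2d lies above 0 in the first fit (0.10 to 0.65) and those of Cdkn1a and Cdkn2d in the blocked fit, while every interval of Rb1, Rbl1 and Rbl2 spans 0.

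Levels were also compared between genes, per kb of exon over all 8 libraries. Cdkn1a was highest, at 389.6 ± 177 normalized reads per kb (SD, n = 8), and Rbl2 lowest, at 28.8 ± 4.91. Cdkn2d followed Cdkn1a at 124 ± 18.6, then came Rbl1 at 104 ± 18.2, Rb1 at 87.3 ± 22.5 and Cdkn1b at 59.8 ± 7.25. The range of Cdkn1a did not overlap that of Cdkn2d, nor that of Cdkn1b the range of Rbl2, but Cdkn2d and Rbl1, Rbl1 and Rb1, and Rb1 and Cdkn1b overlapped. Compared within each library, Cdkn2d was above Rbl1 in 7 of 8 libraries, Rbl1 above Rb1 in 6 and Rb1 above Cdkn1b in 8. Within the summed per-kb level of the 3 pocket proteins, Rbl1 took 48.6% ± 7.31 in KO and 45.9% ± 6.35 in WT, Rb1 37.2% ± 3.01 and 41.6% ± 5.99, and Rbl2 14.2% ± 5.17 and 12.5% ± 1.12 (SD, n = 4 each). In KO replicate 3 Rbl2 reached 21.95%, and Rbl1 took 38.5% there and 38.6% in WT replicate 3.

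The factor by which a library is scaled cancels in a ratio of 2 genes within it, but the additive clone correction does not. Of 3 ratios compared by exact two-sided permutation tests, none differed between genotypes. The log2 ratio of Cdkn1b to Cdkn1a was lower in KO by a difference of -0.50 (exact p = 0.257, 0.429 adjusted over the 3 ratios). That of Rbl1 to Rb1 differed by 0.24 (exact p = 0.429) and that of Rbl2 to Rb1 by 0.28 (exact p = 0.343). With the clone correction undone the 3 differences were -0.26, 0.42 and 0.37 (exact p = 0.657, 0.229 and 0.171).

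Across libraries, some members varied in the same and some in the opposite direction. Pearson's r on the log2 scale over the 8 libraries ran from -0.66 between Rbl1 and Rbl2 to 0.65 between Cdkn1a and Cdkn1b. Within a library all members share its scaling and its genotype, and their part in r was not tested. The transcripts whose pattern was most like each member's, among those with a mean of at least 50, are given by name and r, as a description over 8 libraries. They were Ddit4l (0.99), Leprel4 (0.988) and Nat6 (0.987) for Cdkn1a, Hsd17b7 (0.952), Tpp1 (0.95) and Spin4 (0.948) for Cdkn1b, and Fau (0.983) and 0610012G03Rik (0.966) for Cdkn2d. For the pocket proteins they were Pak2 (0.965), Ttc21b (0.945) and Scrn3 (0.942) for Rb1, Acer3 (0.985), Fam86 (0.974) and Srp54a (0.973) for Rbl1, and Clcn4-2 (0.99), Tmem101 (0.982) and Wbp1 (0.981) for Rbl2.

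The other CDK inhibitors were all in the table. Cdkn2a, whose locus encodes both the INK4 protein p16 and the p53 activator p19ARF, ranged from 161 to 240 in KO and from 87.0 to 154 in WT, with no overlap. Its log2 difference was 0.65 (SE 0.24, limma unadjusted p = 0.0287, adjusted p = 0.498), and it was 0.43 (limma unadjusted p = 0.0848) after the GC and length trend was removed. Cdkn1c, which encodes p57, ranged from 191 to 299 in KO and from 27.8 to 231 in WT (log2 difference 0.68, limma unadjusted p = 0.351). With the clone correction undone Cdkn1c ranged from 69.2 to 420.1 in KO and from 69.9 to 353 in WT. Cdkn2b, which encodes p15, ranged from 38.3 to 51.3 in KO and from 10.04 to 52.8 in WT (0.47, limma unadjusted p = 0.365). Cdkn3, a phosphatase that acts on CDKs, had a log2 difference of 0.13. Over the 4 other CDK inhibitors the median difference was 0.562, and 0.135 with day as a block. In the deposited values WT replicate 1 was the lowest library for Cdkn2a, Cdkn1c and Cdkn2b, but with the clone correction undone its Cdkn1c value was 149, within the range of the other libraries (69.2 to 420.1), while it stayed the lowest for Cdkn2a (96.4) and Cdkn2b (20.1).

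The pathway around the members was read from 9 lists of 109 genes in all. By the fit with clone as a term, 4 genes were higher in KO and 4 lower at an unadjusted p under 0.05, that is 3.67% in each direction, beside 4.62% and 4.46% of all transcripts. After adjustment none stayed under 0.05. With day as a block 9 were higher and 9 lower, beside 9.92% and 9.26% of all transcripts. The median difference over the lists was -0.03 on the log2 scale.

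None of the 12 G1 cyclins and kinases, which the inhibitors act on, had an unadjusted p under 0.05, with differences from -0.23 to 0.31. Cdk4, the partner of D-type cyclins, had means of 4979 in KO and 4685 in WT, and Ccnd3, cyclin D3, 4442 and 4129. The 12 S, G2 and M phase cyclins and kinases likewise had none, with Ccnf and Ccna2 the most abundant and differences of 0.04 and -0.06.

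Of the 10 E2F and DP factors, the partners of the pocket proteins, E2f2 was higher in KO by 0.53 (means 199 ± 19.2 and 138 ± 29.9, limma unadjusted p = 0.0264) and Tfdp2, a dimer partner of E2Fs, was lower by a difference of -0.42 (limma unadjusted p = 0.0332). With day as a block Tfdp2 had a limma unadjusted p = 0.0501. Of the 8 MuvB core genes and partners of p107 and p130, none passed, and Mybl2, which encodes B-Myb, had a difference of 0.25 (limma unadjusted p = 0.318) that was 0.41 with day as a block (limma unadjusted p = 0.0126). E2f8, a repressor of the E2F family, had a difference of 0.38 (limma unadjusted p = 0.0537) that was 0.40 with the block (limma unadjusted p = 0.0157).

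Of the 25 E2F target genes, Tk1, thymidine kinase, was higher in KO by 0.47 (means 1070 ± 100.2 and 771 ± 44.2, limma unadjusted p = 0.00549), and Msh6, a mismatch repair gene, was lower with a difference of -0.32 (means 12364 ± 1284 and 15383 ± 554, limma unadjusted p = 0.0316). The median of the E2F targets was -0.12. With day as a block Mcm4, Prim1 and Chek1, which act in DNA replication and its checkpoint, were lower as well. Their differences were -0.37, -0.30 and -0.54 (limma unadjusted p = 0.0394, 0.0297 and 0.0221). In that fit 4 of the 25 targets were lower and 1 higher, where 9.26% and 9.92% of all transcripts were called. Of the 8 genes of the p53 list none passed, while with day as a block Atm, a DNA damage kinase, was lower with a difference of -0.75 (limma unadjusted p = 0.0452); Ccng1, a p53 target, and Usp7, the enzyme that removes ubiquitin from p53 and MDM2, had differences of 0.19 and -0.12.

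Of the 14 genes listed as ubiquitin ligase parts around p21 and p27, Btrc was lower in KO by a difference of -0.45 (means 759 ± 28.5 and 1038 ± 98.4, limma unadjusted p = 0.00583). Whether each listed part acts on p21 or p27 was not tested. Of 16 regulators of the Cdkn1a and Cdkn1b genes, Id1, an inhibitor of E proteins that are known to switch on Cdkn1a, was higher by 1.72 (means 540.3 ± 182 and 183 ± 145, limma unadjusted p = 0.0338), with overlapping groups, and Smad2 was lower by a difference of -0.30 (limma unadjusted p = 0.0432). With day as a block Skp1a and Cul1 were lower too, with differences of -0.44 and -0.55 (limma unadjusted p = 0.0187 and 0.0413). Cdc20, Klf4 and Foxo3 were higher by 0.32, 0.73 and 0.37 (limma unadjusted p = 0.0224, 0.0013 and 0.0226). In that fit 9.26% of all transcripts were called lower and 9.92% higher. Without KO replicate 4 the lists held 1 gene higher and 1 lower, where 1.56% and 1.70% of all transcripts were called, and without WT replicate 3 they also held 1 and 1, where 5.67% and 3.89% were.

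**Figure D4:**
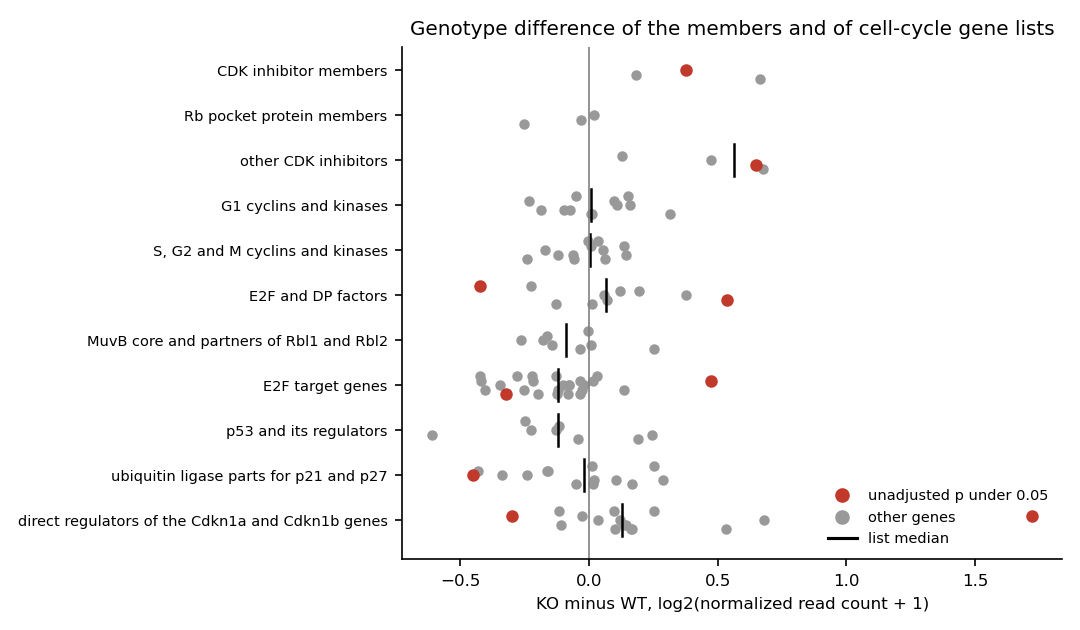
Fitted KO minus WT difference on the log2(normalized read count + 1) scale (horizontal axis) of each gene of the members and of the 9 lists, with red points for an unadjusted p under 0.05, grey points for the others and a black line at each list's median. Besides Cdkn2d, the red points are the 4 higher and the 4 lower list genes, and the medians of the lists lie between -0.12 and 0.56.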

How the data were processed

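mRNA libraries (4 KO, 4 WT) had been prepared with a TruSeq kit that does not mark strand. Per the labels and the study's methods, the authors used CASAVA 1.8, TopHat2, Bowtie2 2.2.1 (mm10), read counts per RefSeq transcript in Partek 6.6, and DESeq2 normalization, followed by a batch correction and a floor of 1. What was deposited is thus normalized signal, not raw counts; transcripts whose higher group mean was under 10 had been removed.

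The correction was an additive clone effect. It was undone as whole reads for 13444 transcripts (99.2%), and reapplying it returned 99.98% of their deposited values to about the printed precision. All transcripts were tested with limma 3.58.1 (R 4.3.3) on log2(value + 1); the model held genotype and clone, and p-values were adjusted by Benjamini-Hochberg; fold changes on this scale understate those of low transcripts. Single values were compared by exact permutation, which takes no account of clone and whose smallest p is 0.0286. Python 3.11.15 was used otherwise.

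The members and lists were chosen with earlier results of these data known. Named were all members, list genes with an unadjusted p under 0.05 (else the 2 most abundant of the list), and 3 transcripts per member by likeness, of which 1 is not reported here. The day label was taken as a pairing. After the correction was undone, deviations from group means of same-day libraries correlated at 0.543, 0.63 and 0.522 on days 3, 4 and 5. The median was -0.185 over 13 pairs of other days. Each same-day pair also shares its clone, while many pairs of other days do not, so these correlations cannot tell day from clone. In the deposited values the same-day correlations were 0.441, 0.54 and -0.21, against a median of 0.0581. Alternatives were other pseudocounts, filters, scales, blocks and left-out libraries; removal of a cubic trend on GC and log2 length was added after the data were seen. Gene positions and lengths are from GENCODE M21.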

Additional observations from a re-analysis of the deposited data

Results flagged for a closer look

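In KO replicate 3 the normalized read count of Rbl1 was 319.8, far below the other 3 KO libraries (549 to 578), and its distance to the nearest of them was 0.888 of the range of the group, past the critical value of Dixon's test for 4 samples. Of 14 groups checked (6 members and Trim71, in KO and in WT), this 1 passed, and chance alone gives about 0.7. The library comes from clone E3 and day 4 and held 345 recovered reads of Rbl1. In the deposited values it was also the highest KO library for Cdkn1a and Rbl2 and the lowest for Rb1.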

How the results depend on the processing

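The log2 differences of the members and Trim71 were recomputed under 22 alternatives, those of the ratios under 10 and the interactions under 9. Trim71 kept its direction and an unadjusted p under 0.05 in all of them, and no member had an adjusted p under 0.05 in any. Leaving out 1 library at a time gave 0.31 to 1.02 for Cdkn1a, 0.05 to 0.31 for Cdkn1b, 0.30 to 0.46 for Cdkn2d, -0.50 to 0.05 for Rb1 (0.053 without WT replicate 3), -0.22 to 0.15 for Rbl1 and -0.10 to 0.16 for Rbl2. It gave 0 to 2 members with an unadjusted p under 0.05, 0 to 1 past the 1.5-fold criterion, 1 to 7 list genes higher and 1 to 5 lower, while 3.26% to 10.7% of all transcripts had an unadjusted p under 0.05 and 1.92% to 6.16% passed the criterion. The interaction of genotype and clone ran from -1.46 to -0.54 for Cdkn1a, from -1.13 to -0.27 for Rb1 and from -0.31 to 0.17 for Rbl2; without KO replicate 4 it cannot be fitted. The ratio of Rbl1 to Rb1 ran from 0.07 to 0.39.

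With the replicate block by day the difference of Cdkn1a was 0.61, and 0.65 by voom on recovered reads (SE 0.098, limma unadjusted p = 0.000646, adjusted p = 0.0855). Both gave 2 members with an unadjusted p under 0.05, where 19.2% of all transcripts were called, and 23.8% by voom. Both gave 1 member past the criterion, which 7.49% of all transcripts passed, and 8.02% by voom. List genes higher and lower numbered 9 and 9, where 9.92% and 9.26% of all transcripts were called. By voom they numbered 13 and 19, where 11.3% and 12.5% were called. Against the fit of 8 libraries the block changed no other member's call. The same 6 libraries without the block gave 0.37 for Cdkn2d (limma unadjusted p = 0.0548). They gave 0 members, where 6.69% of all transcripts were called, and 2 lower list genes, where 2.91% were called lower. Removal of the GC and length trend, chosen after seeing the data, gave 0.24 for Cdkn2d, 0.16 for Rbl1, -0.047 for Rb1 and 0 members (9.81% of transcripts). Together with the block it gave 0.51 for Cdkn1a, 0.43 for Cdkn1b, 0.22 for Cdkn2d (limma unadjusted p = 0.139), 0.18 for Rbl1, -0.0023 for Rb1, 2 members (Cdkn1a and Cdkn1b, where 16.3% of transcripts were called) and 10 higher list genes (8.16%). Rbl2 reversed to -0.078 when the correction was undone without a clone term, and to -0.064 by voom without the block; Rb1 was -0.45 and -0.43 there. The linear model on untransformed values gave 7 lower list genes, where 4.15% of all transcripts were called lower. The causes of these shifts were not tested.

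The ratio of Cdkn2c to Cdkn2d was not run, because Cdkn2c was not analysed. Members held 57 to 2476 recovered reads per library, and counting error weighs most on the lowest of these, Rbl2 in WT replicate 2.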
